A study of Mus musculus with 17 samples.

Results

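Subcutaneous tumours grown from ID8 cells were compared with the same cells in culture, gene by gene, in 3 of the 17 libraries analysed. ID8 is a mouse line from ovarian surface epithelium that transformed spontaneously in culture, and it is widely used as a model of ovarian cancer. The members were chosen by their column names: 2 libraries are subcutaneous tumours, carrying replicate numbers 2 and 3 and called tumour 2 and tumour 3 here, and 1 library is the untreated line grown in DMEM with 10% fetal bovine serum. The tumours came from ID8 cells injected to form primary tumours. The sample labels place them on the scruff, whereas the treatment protocol places subcutaneous tumours on the right and left flank, and host strain, host age, time to harvest and whether both tumours came from separate animals are not given in the sources used here. Libraries were prepared from Trizol-extracted total RNA with a modified directional NEBNext Ultra II protocol. The other 14 libraries (3 orthotopic tumours on the ovary, 6 ascites samples, 3 intestinal metastases, healthy C57BL6 ovary and healthy C57BL6 intestine) entered the same fit. The replicated groups among these 14 add to the estimate of the spread between samples, and all 17 libraries set the filter on low counts and the scaling.

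A cultured line is a single cell type dividing in serum, whereas a tumour is a tissue in which the injected cells are mixed with the host's vessels, fibroblasts and leukocytes and, under the skin, may hold or adjoin fat, hair follicles and epidermis. Cells that cycle express replication genes in S phase under E2F transcription factors and mitotic genes in G2 and M phase, many of them through CHR and CCAAT elements of their promoters bound by the MuvB complexes and NF-Y. MHC class II molecules, which show peptides to CD4 T cells, are made mainly by B cells, dendritic cells and macrophages under the coactivator Ciita. In bulk RNA, more cells of a type and more RNA per cell cannot be told apart, and a lower level of a gene of the line may be fewer ID8 cells or less RNA in each.

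The count totals were 38887321 reads for the line, 24145706 for tumour 2 and 15014218 for tumour 3, against 12031221 to 38902048 for the other libraries and the line together. Mitochondrially encoded genes took 6.03% of the counts in the line, 14% in tumour 2 and 10.7% in tumour 3, against 2.27% to 8.3% in the 15 libraries that are not subcutaneous. Tumour 3 also held a broad layer of low counts. Of 1097 olfactory receptor genes, which these tissues are not known to use widely, 914 had a count in tumour 3, 94 in tumour 2 and 34 in the line, and 95% of them lay under 0.884 CPM in tumour 3 and under 0.0868 CPM in tumour 2. Across the 22671 genes tested, the log2 CPM values correlated at r = 0.82 between both tumours, at 0.76 between the line and tumour 2 and at 0.80 between the line and tumour 3, while pairs of libraries within the 4 other replicated groups lay between 0.88 and 0.97. These correlations are across genes, which are not independent replicates. CPM, the read count scaled to the effective library size by TMM, enters each value below. It is not corrected for gene length, so levels are compared between libraries and not between genes.

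The 2 tumours differed from each other in the tissue genes they held. Tumour 2 was high in fat and lymphoid genes. The 20 adipocyte genes listed summed to 1604 CPM in the line, 98927 in tumour 2 and 1724 in tumour 3, with stearoyl-CoA desaturase Scd1 at 617 CPM in the line, 55037 in tumour 2 and 748 in tumour 3 and fatty acid synthase Fasn at 690.5 CPM in the line, 25589 in tumour 2 and 437 in tumour 3. The 15 B cell genes summed to 3.26 CPM in the line, 4397 in tumour 2 and 53.8 in tumour 3. Tumour 3 was high in skin genes. Its 21 keratinocyte genes summed to 1447 CPM, against 119.5 in the line and 411 in tumour 2. Basal keratin Krt5 was at 0 CPM in the line, 19.1 in tumour 2 and 315 in tumour 3, and inner root sheath keratin Krt25, a hair follicle gene, was at 9.57 CPM in tumour 3 and had no count in the other two libraries. Of 15 skeletal muscle genes 12 were above the line in both tumours, with a median log2 fold change of 5.59 and a sum of 6.22 CPM in the line, 42.5 in tumour 2 and 48.8 in tumour 3. None of the 15 passed edgeR's test, 0 had an unadjusted p under 0.05 and DESeq2 called 1 higher. The values of both tumours are given throughout.

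**Figure D1:**
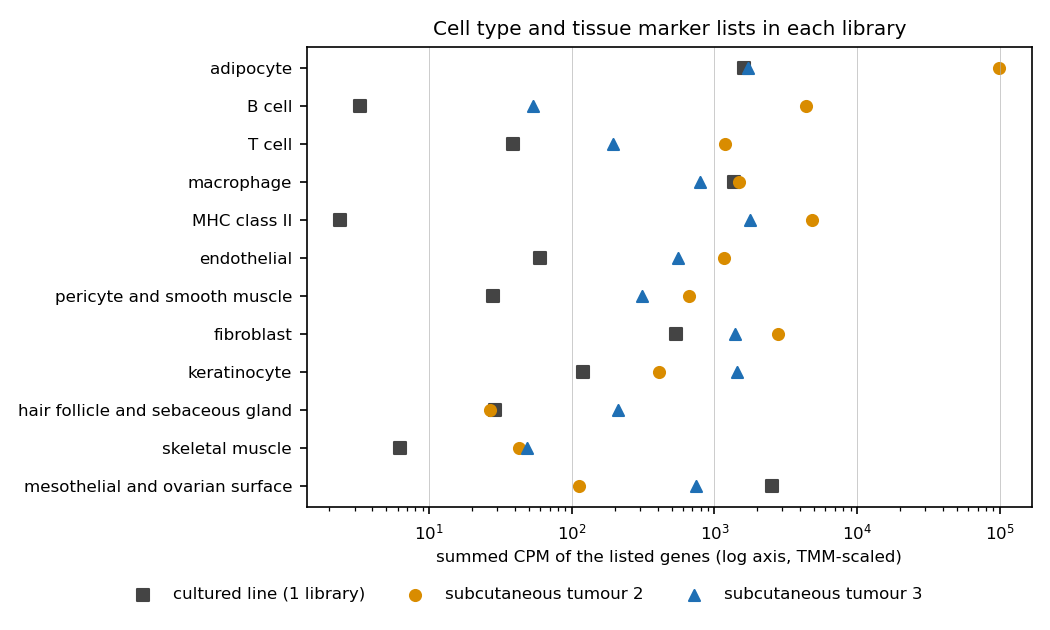
Summed CPM (log axis, TMM-scaled) of the genes in 12 marker lists in the cultured line (squares), tumour 2 (circles) and tumour 3 (triangles), 1 library each. Adipocyte genes reach 98927 CPM in tumour 2 against 1724 in tumour 3, keratinocyte genes are highest in tumour 3, and mesothelial and ovarian surface genes are highest in the line.

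Of 12 genes of ovarian surface and mesothelium, 7 lay below the line in both tumours, 1 lay above it in both and 4 were split. They summed to 2526 CPM in the line, 112 in tumour 2 and 742 in tumour 3. Uroplakin Upk3b, a mesothelial membrane protein, was at 513 CPM in the line, 3.78 in tumour 2 and 105 in tumour 3. The Wilms tumour transcription factor Wt1 was at 577 CPM in the line, 23 in tumour 2 and 385 in tumour 3, and mesothelin Msln was at 124 CPM in the line, 0.434 in tumour 2 and 30.0 in tumour 3. Of the 12, 0 passed edgeR's test in either direction, 2 had an unadjusted p under 0.05 and DESeq2 called 1 lower (edgeR adjusted p = 0.273 for Upk3b, 0.442 for Wt1 and 0.229 for Msln), and the median log2 difference was -4.01 for tumour 2 and -1.35 for tumour 3. Pkhd1l1, a large membrane protein of the fibrocystin family, showed the widest gap of this kind, with 1413 CPM in the line, 1.91 in tumour 2 and 356 in tumour 3. The line itself expressed the simple epithelial keratins, Wt1 and Upk3b, which are genes of ovarian surface and mesothelium, while the surface glycoprotein Epcam was at only 0.583 CPM in it.

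Over all genes, 1418 of 22671 (6.25%) were higher in the tumours and 733 (3.23%) were lower, 2151 in all (9.49%), at an adjusted p under 0.05 in edgeR's quasi-likelihood test with Benjamini-Hochberg adjustment. In each of these 2151 genes both tumours lay on the same side of the line. Over all genes tested, both tumours were above the line in 9681 (42.7%) and both below it in 6893 (30.4%), and the median log2 fold change was 0.60. The higher genes were a mixed set in size: their median log2 fold change was 8.82, 706 of them (49.8%) had no count in the line, and 425 (30.0%) were at least 4-fold higher in tumour 2 than in tumour 3, against 77 (5.43%) at least 4-fold the other way. The lower genes were more alike between the tumours, with a median of -2.03 and with 660 of 733 (90.0%) within 2-fold of each other. At the low end, 41 of the 1418 higher genes lay in tumour 3 under the 0.884 CPM that bounds most olfactory receptor genes. The line is 1 library, so the test assumes that it would vary like the replicated groups. Of the higher genes 700 passed in both fits that left out a tumour, and of the lower genes 116 did. The total was 1067 without tumour 2 (866 higher, 201 lower), and the lower genes numbered 282 when libraries were scaled by total count alone, where 81.0% of the calls were higher instead of 65.9%. DESeq2 called 6059 genes, 4409 higher and 1650 lower.

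**Figure D2:**
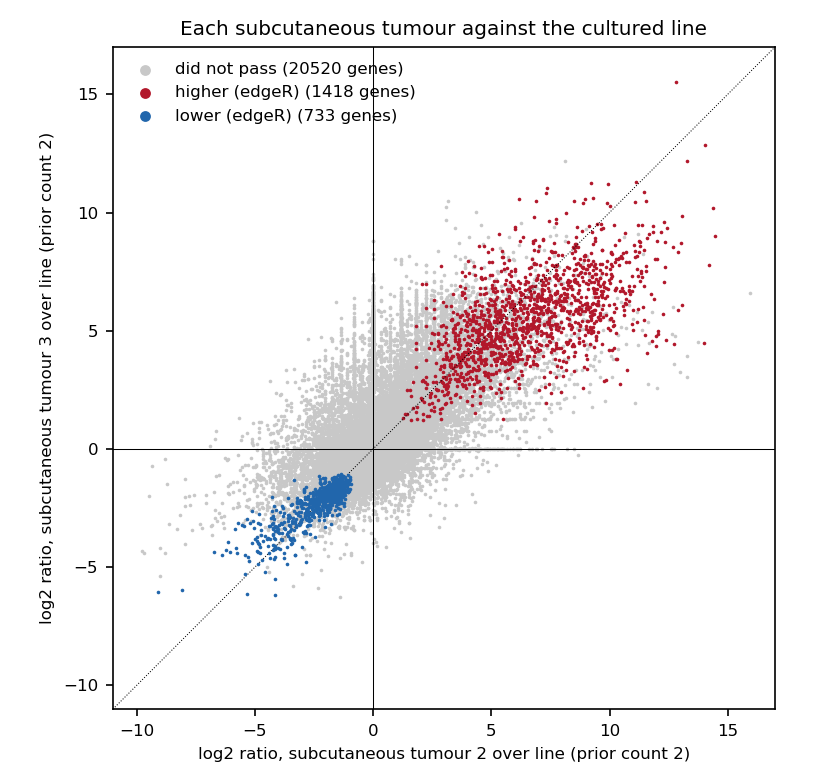
Log2 ratio of tumour 2 over the line (horizontal axis) and of tumour 3 over the line (vertical axis) for each of 22671 genes, with a prior count of 2; red points are the 1418 genes higher and blue points the 733 genes lower in edgeR's test. The lower genes lie close to the dotted line of equal ratios, and many of the higher genes lie below it, with a larger ratio in tumour 2.

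Cell cycle genes were lower in both tumours than in the line. Of 30 mitotic genes, 19 fell (63.3%, against 3.23% of all genes tested), none rose, and all 30 lay below the line in both tumours, with a median log2 fold change of -3.63. The list summed to 6150.1 CPM in the line, 410.1 in tumour 2 and 693 in tumour 3. Polo-like kinase Plk1, which drives mitotic entry and spindle assembly, was at 149 CPM in the line, 5.3 in tumour 2 and 6.92 in tumour 3, with a log2 fold change of -4.61 ± 0.66 (SE) and an edgeR adjusted p of 0.00687. It passed without tumour 2 (edgeR adjusted p = 0.0233) and without tumour 3 (0.00989). Cyclin B1, Ccnb1, the partner of Cdk1 at mitotic entry, was at 189 CPM in the line, 6.51 in tumour 2 and 12 in tumour 3, with a log2 fold change of -4.35 ± 1.04 (SE) and an edgeR adjusted p of 0.0266. Cdk1 itself was at 112 CPM in the line, 5.82 in tumour 2 and 12.4 in tumour 3, with a log2 fold change of -3.62 ± 0.94 (SE) and an edgeR adjusted p of 0.0342. Ube2c, the ubiquitin-conjugating enzyme of the anaphase-promoting complex, was at 183 CPM in the line, 7.29 in tumour 2 and 12.1 in tumour 3, with a log2 fold change of -4.24 ± 0.95 (SE) and an edgeR adjusted p of 0.0215. Both tumours were below the line by a wide margin for each of these genes, and tumour 2 was the lower of the pair. The proliferation antigen Mki67 was at 1194 CPM in the line, 119 in tumour 2 and 181 in tumour 3 and did not pass (edgeR adjusted p = 0.069), and nor did cyclin Ccnb2 at 88.1, 4.82 and 10.7 CPM in the same order (edgeR adjusted p = 0.0724). Aurora kinase Aurka fell from 107 CPM to 9.29 and 7.76, the kinesin Kif20a from 96.9 to 5.08 and 5.69, and the centrosome kinase Nek2 from 45 to 2.47 and 3.14. With tumour 2 left out, the edgeR adjusted p was 0.106 for Ccnb1, 0.128 for Cdk1, 0.0879 for Ube2c, 0.0663 for Aurka, 0.0803 for Kif20a and 0.0807 for Nek2. With tumour 3 left out, it was 0.0538 for Ccnb1, 0.0521 for Cdk1, 0.0564 for Aurka and 0.0559 for Kif20a.

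The count of mitotic genes past the threshold depended on the library and on the scaling: it was 1 without tumour 2, 6 without tumour 3 and 5 with library size alone, while DESeq2 called 28. The size of the difference moved less, the median log2 fold change being -3.20 without tumour 2, -4.32 without tumour 3 and -3.29 with library size alone. The summed level of the mesothelial and ovarian surface genes was also lower in both tumours. It was 2526 CPM in the line, 112 in tumour 2 and 742 in tumour 3. Their median log2 difference was -4.01 for tumour 2 and -1.35 for tumour 3, against -4.146 and -3.195 for the mitotic genes. The part of a lower ID8 cell content in the result was not tested.

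**Figure D3:**
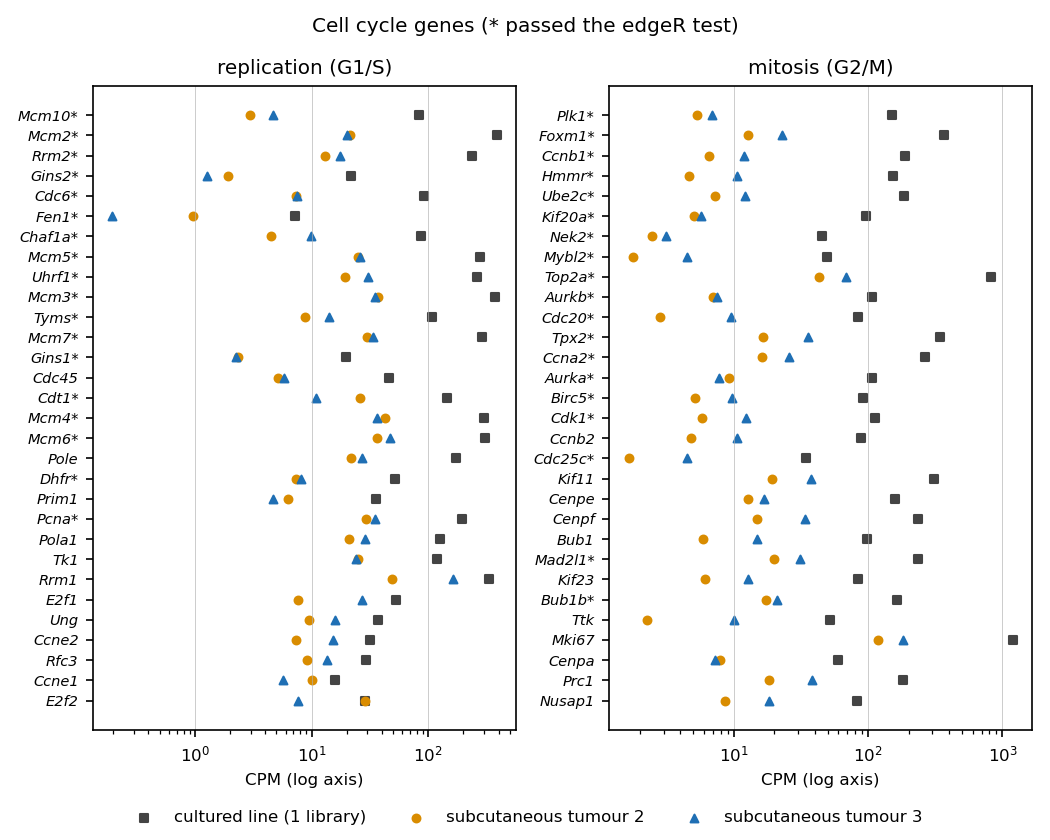
CPM (log axis) of 30 replication genes (left) and 30 mitotic genes (right) in the cultured line (squares), tumour 2 (circles) and tumour 3 (triangles), 1 library each; an asterisk marks the 18 and 19 genes that passed edgeR's test. All 30 mitotic genes and 29 of the 30 replication genes are lower in both tumours than in the line.

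The promoters of these genes are shown because mitotic and replication genes moved together in the data and are known to be driven through different elements. Sequences are the 140 bases before the RefSeq start in GRCm38.p6, 5′ to 3′ on the gene's strand, with matches in capitals to any of 5 strings on either strand: the CHR TTTGAA, its variant TTTAAA, the CCAAT box CCAAT, and the E2F strings TTCCCGCC and TTTGGCGC, none of which holds another.
Plk1, chr7:122159295-122159434, plus strand: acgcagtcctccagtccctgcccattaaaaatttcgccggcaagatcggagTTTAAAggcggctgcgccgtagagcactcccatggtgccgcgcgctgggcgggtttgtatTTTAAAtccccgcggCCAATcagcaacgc
Cdk1, chr10:69352913-69353052, minus strand: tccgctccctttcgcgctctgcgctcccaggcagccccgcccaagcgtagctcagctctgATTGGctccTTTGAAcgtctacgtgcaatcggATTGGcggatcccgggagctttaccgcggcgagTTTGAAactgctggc
Ube2c, chr2:164769789-164769928, plus strand: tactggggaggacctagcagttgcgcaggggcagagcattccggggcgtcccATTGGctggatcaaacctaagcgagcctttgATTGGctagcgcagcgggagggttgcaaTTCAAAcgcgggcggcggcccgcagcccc
Top2a, chr11:99024190-99024329, minus strand: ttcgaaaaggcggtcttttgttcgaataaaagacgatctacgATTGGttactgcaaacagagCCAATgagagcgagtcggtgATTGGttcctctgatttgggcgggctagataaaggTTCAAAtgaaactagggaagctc
Mcm6, chr1:128359706-128359845, minus strand: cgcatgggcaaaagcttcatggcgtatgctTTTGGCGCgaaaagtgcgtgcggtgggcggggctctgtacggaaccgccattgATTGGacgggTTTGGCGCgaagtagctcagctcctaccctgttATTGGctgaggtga
The CHR string lay in 17 of 25 promoters of the mitotic list (68%), searched over 250 bases before to 50 after the start, against 4 of 28 of the replication list (14.3%) and 17.9% of all 32851 promoters of that length. Promoters were at hand for 24 of 30 genes in each list, some with more than 1 start. Of the 4 mitotic promoters printed, Cdk1, Ube2c and Top2a hold the CHR string and Plk1 holds the variant, and each holds at least 1 CCAAT box. The E2F string TTTGGCGC lay in 6 of 28 replication promoters (21.4%), among them that of Mcm6, where it occurs 2 times, in 0 of 25 mitotic promoters and in 0.514% of all promoters. TTCCCGCC lay in 5 of 28 replication promoters (17.9%) and in 2.19% of all. CCAAT was frequent in both lists, at 84% and 67.9% of promoters against 37.4% of all. Such matches are letters in a window and not measured binding.

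Replication genes fell by a similar amount and more evenly between the tumours. Of 30 listed, 18 fell (60%), 0 rose and 29 were below the line in both tumours, with median log2 differences of -2.91 for tumour 2 and -2.94 for tumour 3. Their sum was 4260.3 CPM in the line, 516 in tumour 2 and 679 in tumour 3. The helicase subunit Mcm2 was at 384 CPM in the line, 21.4 in tumour 2 and 20.1 in tumour 3, with a log2 fold change of -4.21 ± 0.60 (SE) and an edgeR adjusted p of 0.00687, and the call held without either tumour (edgeR adjusted p = 0.022 and 0.0124). The other subunits of the same hexameric helicase fell as well, Mcm7 from 291 CPM to 29.8 and 33.9, Mcm4 from 298 to 42.8 and 36.6, and Mcm6, whose promoter is printed above, from 303 to 36.4 and 47.2. The licensing factor Cdt1 fell from 144 CPM to 26.1 and 10.8, and the polymerase clamp Pcna from 196 to 29 and 35.1. Cyclin E genes Ccne1 and Ccne2 did not pass (edgeR adjusted p = 0.491 and 0.0736), and E2f2 was split, at 28.7 CPM in the line, 28.9 in tumour 2 and 7.61 in tumour 3. Without tumour 2 the count was 6, without tumour 3 it was 15. The fit without tumour 2 gave an edgeR adjusted p of 0.0705 for Mcm6.

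Histone genes of the replication-dependent clusters were among the largest falls, and the total RNA libraries can hold their transcripts, which lack poly(A) tails. Of 58 such genes tested (chosen as a group after several of them were among the most negative genes), 27 fell and 1 rose. Over all genes tested 3.23% fell and 6.25% rose. Of the 58, 52 were below the line in both tumours, and the median log2 fold change was -2.83. Linker histone gene Hist1h1b was at 338 CPM in the line, 15.5 in tumour 2 and 19.8 in tumour 3, and Hist1h2bl at 14.9 CPM in the line, 0.304 in tumour 2 and 0.147 in tumour 3. The core histone gene Hist1h3g fell from 21.6 CPM to 0.434 and 0.491, Hist1h2bj from 49.1 to 2 and 1.28, and Hist1h4n from 46.8 to 2.61 and 0.982. Members of these clusters are near-identical in sequence, so reads may be split among copies and the value of a single copy is uncertain. On tumour 3 alone, the edgeR adjusted p was 0.0523 for Hist1h3g and 0.0837 for Hist1h2bn. On tumour 2 alone it was 0.0509 for Hist1h2bn. Hist1h2bl, Hist1h2bj and Hist1h4n passed in both.

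Genes that restrain the cell cycle lay on both sides of the line. Of 19 brakes and p53 targets, 3 rose (15.8%, against 6.25% of all genes) and 0 fell (against 3.23%). At an unadjusted p under 0.05 in edgeR's test 5 were higher and 2 lower. Both tumours were above the line in 7, both below it in 10, and 2 were split. The median log2 fold change was -0.34, against 0.60 for all genes. Cdkn1c, an inhibitor of cyclin-dependent kinases, was at 0.0265 CPM in the line, 13 in tumour 2 and 7.51 in tumour 3 (edgeR adjusted p = 0.0104). The retinoblastoma gene Rb1 was at 33.6 CPM in the line, 201 in tumour 2 and 101 in tumour 3, with a log2 fold change of 2.17 ± 0.54 (SE) and an edgeR adjusted p of 0.03. Cdkn2b had no count in the line and reached 1.91 and 1.87 CPM (edgeR adjusted p = 0.0313). Leaving out tumour 2 gave an edgeR adjusted p of 0.0885 for Rb1 and 0.0573 for Cdkn2b. Only Cdkn1c of the 19 passed without tumour 2, while 3 passed without tumour 3. The p53 target Cdkn1a was at 46.6 CPM in the line, 16.5 in tumour 2 and 20.8 in tumour 3 and Mdm2 at 171 CPM in the line, 75.7 in tumour 2 and 83.1 in tumour 3, neither past the threshold (edgeR adjusted p = 0.34 and 0.144).

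Genes of ribosome production were lower in both tumours. All 19 genes of ribosome biogenesis and MYC targets were below the line in both, and 11 fell (57.9%, against 3.23% of all genes), with a median log2 fold change of -1.91. Nolc1, a nucleolar chaperone of ribosome assembly, was at 224 CPM in the line, 19.7 in tumour 2 and 23.4 in tumour 3, with a log2 fold change of -3.38 ± 0.57 (SE) and an edgeR adjusted p of 0.00982. The snoRNP protein Nop56 fell from 256 CPM to 39.3 and 33.5, spermidine synthase Srm from 154 to 21.3 and 24.5, and Cad, which starts pyrimidine synthesis, from 337 to 70.0 and 47.9. These 4 genes passed without either tumour. Nucleolin Ncl was at 878 CPM in the line, 181 in tumour 2 and 157 in tumour 3 (edgeR adjusted p = 0.0217), and 0.0642 without tumour 2 and 0.0564 without tumour 3. Myc itself was at 185 CPM in the line, 44.3 in tumour 2 and 61.2 in tumour 3 and did not pass (edgeR adjusted p = 0.183), and nor did nucleophosmin Npm1 at 1018 CPM in the line, 197 in tumour 2 and 205 in tumour 3 (edgeR adjusted p = 0.0541). The count was 5 without tumour 3, 8 without tumour 2 and 7 with library size alone.

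Anabolic enzymes followed in part. Of 17 genes of serine, one-carbon and amino acid supply under Atf4, 3 fell (17.6%, against 3.23% of all genes). Both tumours were below the line in 15 of the 17, against 30.4% of all genes tested. The median log2 fold change was -2.35, against 0.60 for all genes. Psat1, the aminotransferase of serine synthesis, was at 646 CPM in the line, 35.6 in tumour 2 and 34.2 in tumour 3, with a log2 fold change of -4.21 ± 0.95 (SE) and an edgeR adjusted p of 0.022. Mitochondrial serine hydroxymethyltransferase Shmt2 fell from 301 CPM to 35.4 and 33.3, and the proline enzyme Aldh18a1 from 240.1 to 27 and 26. With tumour 2 left out, the edgeR adjusted p was 0.0799 for Psat1, 0.0744 for Shmt2 and 0.112 for Aldh18a1. Without tumour 3 it was 0.0628 for Psat1, 0.0579 for Shmt2 and 0.0889 for Aldh18a1. The transcription factor Atf4 was at 441 CPM in the line, 83.3 in tumour 2 and 79.6 in tumour 3 and asparagine synthetase Asns at 208 CPM in the line, 40.7 in tumour 2 and 32.7 in tumour 3, neither past the threshold (edgeR adjusted p = 0.166 and 0.2). Without tumour 2 the count was 0 and without tumour 3 it was 1.

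Of 22 cholesterol genes 5 fell (22.7%, against 3.23% of all genes) and 0 rose, with 17 below the line in both tumours and 5 split. Farnesyl diphosphate synthase Fdps was at 77.6 CPM in the line, 20.5 in tumour 2 and 14.4 in tumour 3, with a log2 fold change of -2.15 ± 0.43 (SE) and an edgeR adjusted p of 0.0158. Squalene epoxidase Sqle fell from 149 CPM to 44.2 and 61.7, the transcription factor Srebf2 from 400.3 to 163 and 124, and the sterol isomerase Ebp from 67.4 to 20.7 and 25.8. The fit without tumour 2 gave an edgeR adjusted p of 0.107 for Sqle, 0.0775 for Srebf2 and 0.136 for Ebp. On tumour 2 alone it was 0.0978 for Srebf2 and 0.0525 for Ebp. Insig1, which holds the pathway back and is abundant in fat, was at 114 CPM in the line, 473 in tumour 2 and 53.5 in tumour 3, so that tumour 2 stood apart. The count of genes that fell was 1 without tumour 2, 2 without tumour 3 and 2 with library size alone.

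Few glycolysis and hypoxia genes passed edgeR's test. Of 25, 1 fell and 0 rose, a share of 4% against 3.23% of all genes, and DESeq2 called 4 lower and 2 higher. Both tumours were below the line in 14 and above it in 7, and 4 were split. The median log2 fold change was -0.66 against 0.60 for all genes. The list summed to 7047 CPM in the line, 4463 in tumour 2 and 2334 in tumour 3. The gene that fell was Gapdh at 198 CPM in the line, 16.6 in tumour 2 and 21.4 in tumour 3, with a log2 fold change of -3.38 ± 0.80 (SE) and an edgeR adjusted p of 0.0254. Gapdh has many processed pseudogenes that share its sequence, so its count is uncertain. On tumour 3 alone, the edgeR adjusted p was 0.095 for Gapdh. With tumour 3 left out, it was 0.0559 for Gapdh. Hexokinase Hk2 was at 195 CPM in the line, 144 in tumour 2 and 78 in tumour 3 and the hypoxia target Vegfa at 132 CPM in the line, 144 in tumour 2 and 156 in tumour 3 (edgeR adjusted p = 0.448 and 0.951). The hypoxia targets Bnip3, at 10.6 CPM in the line, 197 in tumour 2 and 49.8 in tumour 3, and Car9, at 1.14 CPM in the line, 1.65 in tumour 2 and 1.67 in tumour 3, did not pass (edgeR adjusted p = 0.121 and 0.864). Of the 13 protein genes of the mitochondrial genome 0 passed edgeR's test in either direction, 0 had an unadjusted p under 0.05 and DESeq2 called 0, with 3423 CPM in the line, 12685 in tumour 2 and 7417 in tumour 3 for the complex I subunit mt-Nd4 and an edgeR adjusted p of 0.202.

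**Figure D4:**
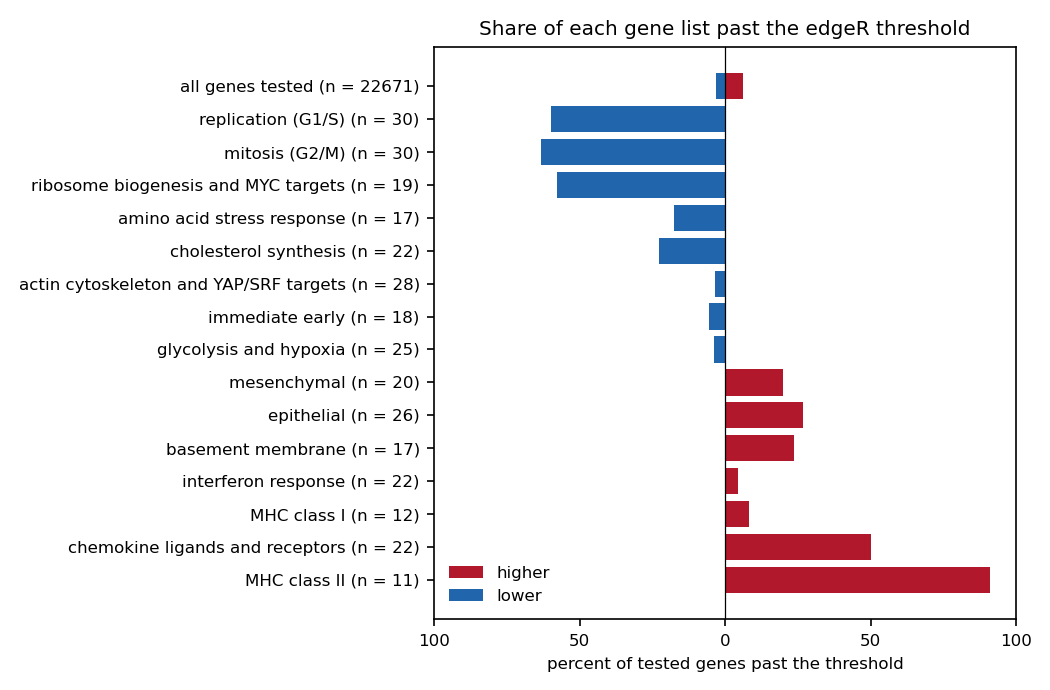
Percent of the tested genes of each list that passed edgeR's test, lower in the tumours to the left (blue) and higher to the right (red), with the number of genes tested in brackets; the top bar is all genes tested, 3.23% lower and 6.25% higher. Cell cycle and ribosome lists reach 57.9% to 63.3% on the lower side and MHC class II 90.9% on the higher side.

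Among single genes the steepest falls were of several kinds. The candidates were 681 genes past the threshold, with at least 10 CPM in the line and both tumours below it. Rab3b, a small GTPase of regulated secretion, was at 88.9 CPM in the line, 0.261 in tumour 2 and 1.37 in tumour 3. Filamin C, Flnc, an actin cross-linker, was at 697 CPM in the line, 8.38 in tumour 2 and 31.1 in tumour 3, with a log2 fold change of -5.14 ± 1.14 (SE) and an edgeR adjusted p of 0.0209. Ptgs2, the inducible cyclooxygenase, was 107-fold lower in tumour 2 and 20.6-fold lower in tumour 3, at 450.5 CPM in the line, 4.21 in tumour 2 and 21.9 in tumour 3. Neutral sphingomyelinase Smpd3 was at 724 CPM in the line, 9.73 in tumour 2 and 37.7 in tumour 3. Betacellulin, Btc, an EGF receptor ligand, was at 181 CPM in the line, 4.6 in tumour 2 and 7.66 in tumour 3. The KRAB zinc finger gene Zfp57, which guards imprinted methylation, was at 53.6 CPM in the line, 1.17 in tumour 2 and 2.36 in tumour 3, the corepressor Ripply1 at 37.1 CPM in the line, 0 in tumour 2 and 0.491 in tumour 3 and the spindle gene Psrc1 at 180.3 CPM in the line, 2.52 in tumour 2 and 11.8 in tumour 3. In each of these 8 genes tumour 2 was the lower of the pair. Leaving out tumour 2 gave an edgeR adjusted p of 0.136 for Rab3b, 0.0826 for Flnc, 0.119 for Ptgs2, 0.112 for Smpd3, 0.119 for Btc, 0.0984 for Zfp57, 0.105 for Ripply1 and 0.0995 for Psrc1. Without tumour 3 it was 0.0654 for Rab3b and 0.0712 for Btc.

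Of 7 genes of the aryl hydrocarbon receptor pathway, a ligand-activated response to aromatic compounds, 2 fell (28.6%, against 3.23% of all genes), 5 were below the line in both tumours and 2 were split. Ahrr, the repressor that the receptor itself induces, was at 45.3 CPM in the line, 0.738 in tumour 2 and 2.41 in tumour 3, with a log2 fold change of -4.85 ± 0.95 (SE) and an edgeR adjusted p of 0.0154. The quinone reductase Nqo1, shared with the Nrf2 response, was at 87.4 CPM in the line, 3.82 in tumour 2 and 6.14 in tumour 3, with a log2 fold change of -4.13 ± 0.91 (SE) and an edgeR adjusted p of 0.0209. With tumour 2 left out, the edgeR adjusted p was 0.0566 for Ahrr and 0.0854 for Nqo1. The target Cyp1b1 was at 1886 CPM in the line, 142 in tumour 2 and 431 in tumour 3 and Cyp1a1 at 34.6 CPM in the line, 8.12 in tumour 2 and 1.77 in tumour 3, and neither passed (edgeR adjusted p = 0.208 and 0.285). The receptor Ahr was at 148 CPM in the line, 38.6 in tumour 2 and 88.7 in tumour 3 (edgeR adjusted p = 0.215).

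Actin, YAP and serum-response genes were mostly below the line but few passed. Of 28 actin and YAP/SRF genes 18 were below the line in both tumours, against 30.4% of all genes tested. Only 1, Flnc, fell (3.57%, near the 3.23% of all genes), and DESeq2 called 8 lower and 2 higher. The YAP target Ankrd1 was at 109 CPM in the line, 0.174 in tumour 2 and 5.11 in tumour 3 (edgeR adjusted p = 0.0757), higher in tumour 3 than in tumour 2. The count was 0 without tumour 2 and 4 without tumour 3. Of 18 immediate early genes, which serum and tissue handling both induce, 13 were below the line in both tumours. In edgeR's test 1 fell (5.56%, near the 3.23% of all genes), and DESeq2 called 5 lower and 1 higher. The gene that fell was Ier3, at 398 CPM in the line, 8.6 in tumour 2 and 42.4 in tumour 3. Its log2 fold change was -3.96 ± 1.08 (SE), with an edgeR adjusted p of 0.0407. The fit without tumour 2 gave an edgeR adjusted p of 0.134 for Ier3. Fos was at 128 CPM in the line, 19.1 in tumour 2 and 37.8 in tumour 3 and Egr1 at 602 CPM in the line, 73.5 in tumour 2 and 88.5 in tumour 3 (edgeR adjusted p = 0.138 and 0.0644).

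Of 29 secreted growth factors and cytokines 3 rose (10.3%, against 6.25% of all genes) and 2 fell (6.9%, against 3.23%), shares near those of all genes. Both tumours were above the line in 11, both below it in 14, and 4 were split. Igfbp5, a binding protein of insulin-like growth factors, had no count in the line and reached 491 CPM in tumour 2 and 3254 in tumour 3, at least 6179-fold higher in tumour 2 and at least 40944-fold higher in tumour 3 against a floor of 3 counts in the line (0.0795 CPM; edgeR adjusted p = 0.0121). Hepatocyte growth factor Hgf, the ligand of Met, had none in the line and 10.9 and 5.2 CPM in the tumours (edgeR adjusted p = 0.0127). The fetal growth factor Igf2 was at 0.185 CPM in the line, 13.2 in tumour 2 and 7.12 in tumour 3 (edgeR adjusted p = 0.043). On the other side, macrophage colony-stimulating factor Csf1 was at 400.2 CPM in the line, 53.9 in tumour 2 and 55.9 in tumour 3, with a log2 fold change of -2.87 ± 0.68 (SE) and an edgeR adjusted p of 0.0255, and the neurotrophin Bdnf at 77.8 CPM in the line, 2.17 in tumour 2 and 4.91 in tumour 3, with a log2 fold change of -4.46 ± 1.1 (SE) and an edgeR adjusted p of 0.029. On tumour 3 alone, the edgeR adjusted p was 0.0833 for Igf2, 0.086 for Csf1 and 0.112 for Bdnf. Without tumour 3 it was 0.0589 for Csf1 and 0.0504 for Bdnf. The BMP antagonist Grem1 was at 252 CPM in the line, 13.9 in tumour 2 and 25.4 in tumour 3 (edgeR adjusted p = 0.0962). Both falls ended with library size alone, where 0 of the 29 fell and 2 rose, and without tumour 2, where 0 fell.

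Epithelial genes split into those the line already expressed and those it nearly lacked. Of 26 epithelial genes 7 rose (26.9%, against 6.25% of all) and 0 fell, with a median log2 fold change of 3.50, yet the list summed to 1303 CPM in the line, 492 in tumour 2 and 638 in tumour 3. The simple keratins carried that sum: Krt19 was at 611 CPM in the line, 58.6 in tumour 2 and 82.9 in tumour 3, Krt8 at 262 CPM in the line, 26.7 in tumour 2 and 57.1 in tumour 3 and Krt18 at 247 CPM in the line, 32.9 in tumour 2 and 34.5 in tumour 3, with both tumours below the line and none past the threshold (edgeR adjusted p = 0.12, 0.122 and 0.105). E-cadherin Cdh1 was at 94 CPM in the line, 55.3 in tumour 2 and 49.7 in tumour 3 (edgeR adjusted p = 0.557). The 7 that rose, genes of cell junctions, cell polarity and membrane serine proteases and their inhibitor, were all under 1 CPM in the line. Spint2, an inhibitor of membrane serine proteases, had no count in the line and 23.6 and 21.7 CPM in the tumours (edgeR adjusted p = 0.0137). Occludin Ocln, a tight junction protein, had none in the line and 4.25 and 4.81 CPM (edgeR adjusted p = 0.0178). Plakophilin Pkp3, of desmosomes, was at 0.159 CPM in the line, 13.9 in tumour 2 and 14.5 in tumour 3, and Marveld2, of tricellular junctions, at 0.106 CPM in the line, 6.73 in tumour 2 and 3.34 in tumour 3. The protease St14 was at 0.583 CPM in the line, 35.1 in tumour 2 and 11.1 in tumour 3, the junction scaffold Tjp3 at 0.371 CPM in the line, 12.7 in tumour 2 and 3.98 in tumour 3, and the polarity gene Crb3 at 0.053 CPM in the line, 0.955 in tumour 2 and 1.96 in tumour 3. Leaving out tumour 2 gave an edgeR adjusted p of 0.0534 for Marveld2, 0.0753 for St14, 0.101 for Tjp3 and 0.0587 for Crb3. On tumour 2 alone it was 0.0917 for Crb3. The count was 3 without tumour 2 and 6 without tumour 3. Epcam was at 0.583 CPM in the line, 44.7 in tumour 2 and 12.3 in tumour 3 (edgeR adjusted p = 0.0784) and desmoplakin Dsp at 15.8 CPM in the line, 49.3 in tumour 2 and 212 in tumour 3 (edgeR adjusted p = 0.226). The summed level of keratinocyte genes was higher in both tumours, most in tumour 3, at 119.5 CPM in the line, 411 in tumour 2 and 1447 in tumour 3. The sum of the epithelial list was lower in both. Among the 7 epithelial genes that rose, St14, Tjp3 and Marveld2 were higher in tumour 2 and Crb3 in tumour 3. Spint2, Ocln and Pkp3 were close to even. The part of keratinocytes in the epithelial list was not tested.

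**Figure D5:**
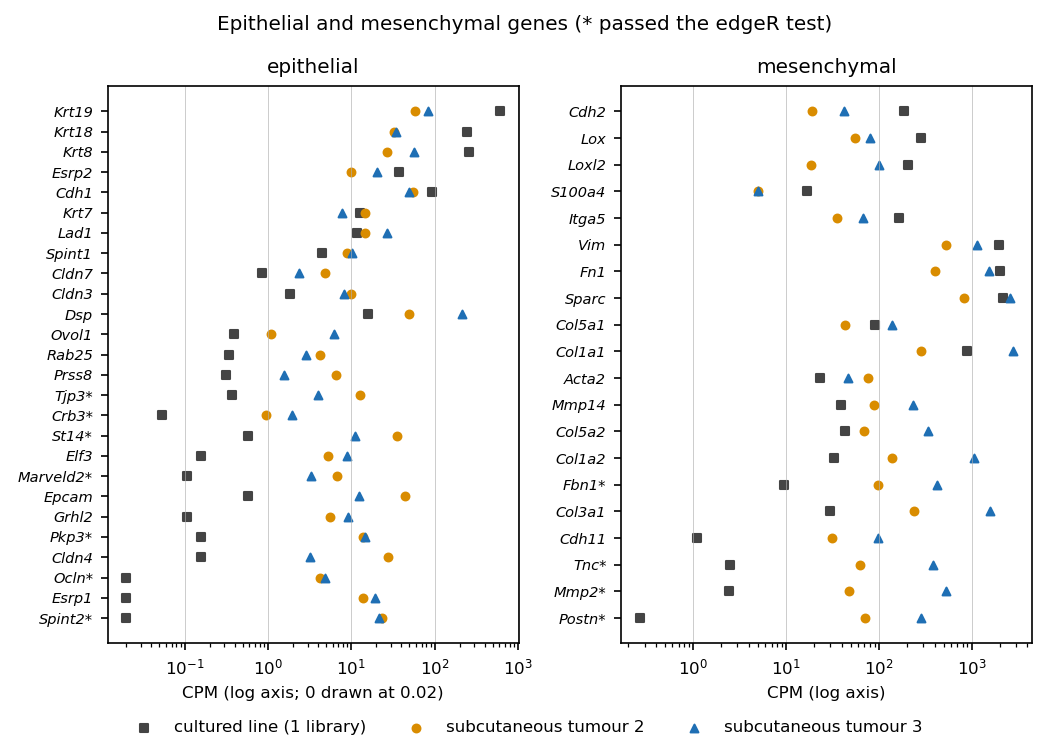
CPM (log axis) of 26 epithelial genes (left, where 0 is drawn at 0.02) and 20 mesenchymal genes (right) in the cultured line (squares), tumour 2 (circles) and tumour 3 (triangles), 1 library each; an asterisk marks the 7 and 4 genes that passed edgeR's test. Keratins 8, 18 and 19 lie below the line's level in both tumours, and collagens and Postn lie highest in tumour 3.

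Mesenchymal matrix genes rose in a few cases and differed between the tumours. Of 20, 4 rose (20%, against 6.25% of all genes) and 0 fell. Periostin Postn, a matricellular protein of activated stroma, was at 0.265 CPM in the line, 70.6 in tumour 2 and 286 in tumour 3, with a log2 fold change of 9.37 ± 1.78 (SE) and an edgeR adjusted p of 0.0142. Tenascin Tnc was at 2.52 CPM in the line, 62.1 in tumour 2 and 380 in tumour 3, the gelatinase Mmp2 at 2.41 CPM in the line, 47.4 in tumour 2 and 537 in tumour 3, and fibrillin Fbn1 at 9.59 CPM in the line, 97.3 in tumour 2 and 429 in tumour 3 (edgeR adjusted p = 0.0158, 0.0392 and 0.0442). In all 4 tumour 3 was the higher. Without tumour 3 the edgeR adjusted p was 0.0791 for Mmp2 and 0.105 for Fbn1. Collagen Col1a1 was at 885 CPM in the line, 288 in tumour 2 and 2815 in tumour 3 and Col3a1 at 30.0 CPM in the line, 239 in tumour 2 and 1576 in tumour 3 (edgeR adjusted p = 0.73 and 0.0862), so that tumour 2 was below the line for Col1a1. Vimentin Vim was at 1979.9 CPM in the line, 536 in tumour 2 and 1147 in tumour 3, fibronectin Fn1 at 2022 CPM in the line, 399 in tumour 2 and 1529.7 in tumour 3 and N-cadherin Cdh2 at 187 CPM in the line, 19.2 in tumour 2 and 42.5 in tumour 3, with both tumours below the line and none past the threshold (edgeR adjusted p = 0.485, 0.601 and 0.165). The list's median log2 fold change was 1.1, and it was -0.34 without tumour 3 and 1.33 without tumour 2. The count was 2 without tumour 3 and 2 with library size alone.

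The transcription factors of epithelial-mesenchymal transition did not pass: 0 of 9 in either direction in edgeR's test, and DESeq2 called 3 higher. Snai1 was at 20.7 CPM in the line, 6.51 in tumour 2 and 25.1 in tumour 3, Snai2 at 30.2 CPM in the line, 14 in tumour 2 and 16.8 in tumour 3, Twist1 at 3.05 CPM in the line, 10.5 in tumour 2 and 9.67 in tumour 3 and Twist2 at 8.48 CPM in the line, 2.21 in tumour 2 and 1.57 in tumour 3 (edgeR adjusted p = 0.723, 0.373, 0.417 and 0.344). Zeb2, which macrophages and other host cells also express, was at 116 CPM in the line, 432 in tumour 2 and 207 in tumour 3 (edgeR adjusted p = 0.369). At an unadjusted p under 0.05 in edgeR's test 3 of the 9 passed.

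Of 17 basement membrane genes 4 rose (23.5%, against 6.25% of all genes) and 0 fell. Both tumours were above the line in 7, both below it in 7, and 3 were split, with a median log2 fold change of -0.21. Laminin chain Lama4, of vessels, was at 0.821 CPM in the line, 189 in tumour 2 and 67.3 in tumour 3, and Lama3, of epithelia, at 0.159 CPM in the line, 24.1 in tumour 2 and 59 in tumour 3 (edgeR adjusted p = 0.0164 and 0.0146). The nidogens, which link laminin to collagen IV, were at 6.97 CPM in the line, 261 in tumour 2 and 64.9 in tumour 3 for Nid1 and at 0.053 CPM in the line, 29.6 in tumour 2 and 15.5 in tumour 3 for Nid2 (edgeR adjusted p = 0.018 and 0.0269). The fit without tumour 2 gave an edgeR adjusted p of 0.0546 for Nid2. The collagen IV chains Col4a1 and Col4a2 stayed within 2-fold of the line in both tumours, at 479 CPM in the line, 435 in tumour 2 and 332 in tumour 3 and 316, 273 and 273 CPM in the same order. Lama5, the chain abundant in the line, was at 599 CPM in the line, 126 in tumour 2 and 330.3 in tumour 3 (edgeR adjusted p = 0.268).

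The largest rises in both tumours were mostly genes of leukocytes, fat and vessels. The rule took the 14 largest among 474 genes past the threshold with at least 10 CPM in each tumour, and each of the 14 had no count in the line. Ptprc, the pan-leukocyte phosphatase CD45, was at 1464 CPM in tumour 2 and 80.2 in tumour 3, at least 18425-fold higher in tumour 2 and at least 1009-fold higher in tumour 3. Lysozyme Lyz2, of macrophages and neutrophils, was at 591 and 64 CPM, and the leukocyte surface genes Cd53 and Cd52 at 355 and 319 CPM in tumour 2 and 29.6 and 40.2 in tumour 3. Wdfy4, needed by dendritic cells for cross-presentation, was at 577 and 29 CPM, and Bcl11a, a transcription factor of B and dendritic cells, at 279.7 and 30.7. The lipid genes were the fatty acid receptor Cd36 at 1318 and 15 CPM, and the monoacylglycerol lipase Mgll at 378 and 44.5. The prolactin receptor Prlr was at 521 and 22.1 CPM. Tumour 2 was the higher in all of these, by at least 4-fold. Kdr, the VEGF receptor of endothelium, was the most even, at 154 CPM in tumour 2 and 174 in tumour 3. On tumour 3 alone, the edgeR adjusted p was 0.0748 for Prlr. The rest of the 14 passed in both fits that left out a tumour.

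MHC class II genes formed the list with the largest share of rises among those examined. Of 11, 10 rose (90.9%, against 6.25% of all genes) and all 11 were above the line in both tumours. The list summed to 2.36 CPM in the line, 4863 in tumour 2 and 1781 in tumour 3. H2-Aa, the alpha chain of I-A, had no count in the line and was at 1164 CPM in tumour 2 and 518 in tumour 3, at least 14643-fold higher in tumour 2 and at least 6513-fold higher in tumour 3 (edgeR adjusted p = 0.00686). Its partner H2-Ab1 was at 686 and 321 CPM, with none in the line. H2-Eb1, a chain of I-E, was at 0.106 CPM in the line, 529 in tumour 2 and 253 in tumour 3, the invariant chain Cd74 at 0.927 CPM in the line, 1363 in tumour 2 and 454 in tumour 3, and the coactivator Ciita at 0.212 CPM in the line, 292 in tumour 2 and 36.5 in tumour 3 (edgeR adjusted p = 0.00687, 0.00887 and 0.0216). Cathepsin S, Ctss, which trims the invariant chain, was at 194 and 130.2 CPM, with none in the line. The peptide editor gene H2-DMb1 was at 0.106 CPM in the line, 66.1 in tumour 2 and 39.9 in tumour 3. The modulators that are mostly found in B cells behaved differently, with H2-Ob at 245 CPM in tumour 2 and 1.57 in tumour 3, and H2-Oa, the gene that did not pass, at 38.3 and 0.884 (edgeR adjusted p = 0.0686). The count was 9 without tumour 2, 11 without tumour 3 and 10 with library size alone. The B cell list moved with these genes in tumour 2, at 4397 CPM against 53.8 in tumour 3, and its part in them was not tested.

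Promoters of 2 class II genes are shown, since 8 of the 11 genes had one in the table and these rose in both tumours. They are drawn in the same way as above, 140 bases before the start in GRCm38.p6 with the same 5 strings searched.
H2-Aa, chr17:34287824-34287963, minus strand: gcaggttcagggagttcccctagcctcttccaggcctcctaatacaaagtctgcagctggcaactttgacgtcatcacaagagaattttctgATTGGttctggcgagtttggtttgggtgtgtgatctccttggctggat
H2-Eb1, chr17:34305727-34305866, plus strand: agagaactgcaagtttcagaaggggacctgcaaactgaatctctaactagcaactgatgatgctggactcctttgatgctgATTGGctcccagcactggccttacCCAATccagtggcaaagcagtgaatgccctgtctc
The string CCAAT, which the Y box of class II promoters holds, lay in 7 of 9 promoters of the list (77.8%). It lay in 37.4% of all promoters of that length, and each of the promoters printed holds it. Whether a match is the Y box was not tested. The CHR string lay in 0 of the 9.

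MHC class I and interferon genes were higher in tumour 2 than in tumour 3 and mostly did not pass. Of 12 class I genes, 9 were above the line in both tumours, against 42.7% of all genes tested. In edgeR's test 1 rose (8.33%, near the 6.25% of all genes), and DESeq2 called 9 higher. The gene that rose was the immunoproteasome subunit Psmb9, at 0.689 CPM in the line, 42.6 in tumour 2 and 11.8 in tumour 3. Its log2 fold change was 5.29 ± 1.29 (SE), with an edgeR adjusted p of 0.0285. Leaving out tumour 2 gave an edgeR adjusted p of 0.0661 for Psmb9. The heavy chain H2-K1 was at 37.6 CPM in the line, 529 in tumour 2 and 147 in tumour 3 and the peptide transporter Tap1 at 8.61 CPM in the line, 176 in tumour 2 and 43.1 in tumour 3 (edgeR adjusted p = 0.0655 and 0.0741). The count was 0 without tumour 2, 5 without tumour 3 and 3 with library size alone. Of 22 interferon response genes 20 were above the line in both tumours, with a median log2 fold change of 2.61 against 0.60 for all genes, and 1 rose (4.55%, against 6.25%). That gene was the chemokine Cxcl9, with no count in the line and 44.8 and 14.5 CPM in the tumours (edgeR adjusted p = 0.039). With tumour 2 left out, the edgeR adjusted p was 0.073 for Cxcl9. Ifit1 was at 4.45 CPM in the line, 44.9 in tumour 2 and 26.6 in tumour 3 and Isg15 at 1.59 CPM in the line, 7.77 in tumour 2 and 2.85 in tumour 3 (edgeR adjusted p = 0.166 and 0.464). Library size alone gave 4 of the 22, leaving out tumour 3 gave 4, leaving out tumour 2 gave 0 and DESeq2 gave 14.

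Macrophage genes rose, several of them to like levels in both tumours. Of 21, 12 rose (57.1%, against 6.25% of all genes) and 0 fell. The complement genes C1qa, C1qb and C1qc, made by tissue macrophages, had no count in the line and were at 48.8, 72.2 and 42.7 CPM in tumour 2 and 50.6, 86.3 and 39.4 in tumour 3 (edgeR adjusted p = 0.00687, 0.00687 and 0.0087). Adgre1, which encodes F4/80, had none in the line and 26.1 and 34.3 CPM. The receptor of macrophage colony-stimulating factor, Csf1r, was at 0.742 CPM in the line, 110.4 in tumour 2 and 64.6 in tumour 3, and Apoe at 2.2 CPM in the line, 293 in tumour 2 and 139 in tumour 3 (edgeR adjusted p = 0.0178 and 0.014). The mannose receptor Mrc1 had none in the line and 43 and 27.8 CPM (edgeR adjusted p = 0.0306; without tumour 2, 0.0574). The list's sum, at 1376 CPM in the line, 1481 in tumour 2 and 793 in tumour 3, did not follow these genes, because osteopontin Spp1, which the line itself expressed, was at 1361 CPM in the line, 3.34 in tumour 2 and 150.4 in tumour 3. The count was 8 without tumour 2 and 12 without tumour 3, where Spp1 fell (edgeR adjusted p = 0.0221). Dendritic cell genes rose in 5 of 10 (50%, against 6.25% of all genes). Among them were the receptor Flt3 at 14.1 and 6.43 CPM and the integrin Itgax at 13 and 22.2, both without a count in the line. Of the 10, 9 were above the line in both tumours and 1 was below it in both. The dendritic list's sum was lower in the tumours, at 330 CPM in the line, 203 in tumour 2 and 128 in tumour 3.

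T cell genes rose, and more in tumour 2. Of 22, 13 rose (59.1%, against 6.25% of all genes) and 0 fell. Their sum was 38.9 CPM in the line, 1190.5 in tumour 2 and 196 in tumour 3. Cd3e, of the T cell receptor complex, had no count in the line and 43.1 and 4.91 CPM in the tumours (edgeR adjusted p = 0.0193). Cd4 was at 62.3 and 5.74 CPM and the costimulatory receptor Cd28 at 26.4 and 3.98, both absent from the line's counts. Cd8a was at 0.053 CPM in the line, 44.3 in tumour 2 and 1.13 in tumour 3, with an edgeR adjusted p of 0.0399, and of 0.0967 without tumour 2. The regulatory T cell factor Foxp3 was at 0.874 CPM in the line, 13.5 in tumour 2 and 7.41 in tumour 3 (edgeR adjusted p = 0.0614). The count was 7 without tumour 2 and 17 without tumour 3.

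B cell genes were far higher in tumour 2 than in tumour 3. Of 15, 9 rose (60%, against 6.25% of all genes) and all 15 were above the line in both tumours. The median log2 difference, however, was 11.09 for tumour 2 and 3.33 for tumour 3. The antigen receptor partner Cd22 had no count in the line and was at 593 and 4.57 CPM, and the transcription factor Ebf1 was at 0.053 CPM in the line, 310.1 in tumour 2 and 22.3 in tumour 3 (edgeR adjusted p = 0.0208 and 0.0158). The B cell identity factor Pax5 was at 149.8 and 0.196 CPM, with none in the line, and did not pass (edgeR adjusted p = 0.0529). Pax5 and Fcrla, the latter at 0.442 CPM in tumour 3, lay there within the range of the olfactory receptor genes, under 0.884 CPM. The count was 5 without tumour 2, 14 without tumour 3 and 3 with no filter on low counts. Lymphoid tissue genes followed the same tumour: the follicle chemokine Cxcl13 was at 0.053 CPM in the line, 598 in tumour 2 and 6.23 in tumour 3, lymphotoxin Ltb at 0 CPM in the line, 71.2 in tumour 2 and 2.16 in tumour 3, and Glycam1, a ligand of high endothelial venules, at 0 CPM in the line, 215 in tumour 2 and 0.393 in tumour 3 (edgeR adjusted p = 0.0406, 0.0213 and 0.0596). The fit without tumour 2 gave an edgeR adjusted p of 0.0793 for Cxcl13. Of 7 plasma cell genes 4 rose (57.1%, against 6.25% of all genes), 1 lay below the line in both tumours and DESeq2 called 1 lower. The list summed to 197 CPM in the line, 186 in tumour 2 and 84.7 in tumour 3. Its median log2 fold change was 6.50, and 6.14 without tumour 2. Jchain was at 13.6 CPM in tumour 2 and 1.18 in tumour 3 with none in the line (edgeR adjusted p = 0.0493).

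Of 12 NK and cytotoxic genes 5 rose (41.7%, against 6.25% of all genes), led by the receptors Klrk1 at 13 and 3.34 CPM and Klrd1 at 8.29 and 2.95, with none in the line. The granzymes Gzma and Gzmb were at 0.434 and 2.08 CPM in tumour 2 and 0.196 and 0.589 in tumour 3, and the latter values lie within the range of the olfactory receptor genes. Of 11 neutrophil genes 1 rose, the receptor Csf3r, a share of 9.09%, near the 6.25% of all genes. S100a8 was at 0.106 CPM in the line, 13.6 in tumour 2 and 4.12 in tumour 3 (edgeR adjusted p = 0.126). Mast cell genes summed to 39.7 CPM in the line, 186 in tumour 2 and 141 in tumour 3, and 2 of 8 rose, Hdc at 0.053 CPM in the line, 6.69 in tumour 2 and 13.1 in tumour 3 and Ms4a2 at 0 CPM in the line, 0.695 in tumour 2 and 2.01 in tumour 3, and the protease gene Mcpt4 was at 39.1 and 11 CPM with none in the line (edgeR adjusted p = 0.0796; Ms4a2 without tumour 3, 0.0568). Globin genes of red cells rose in 4 of 7 (57.1%), against 25% of the mast cell genes and 6.25% of all genes. Hbb-bs was at 74.7 and 21.8 CPM with none in the line. The pair of alpha globin genes is near-identical, so their counts are uncertain. Without tumour 2 the red cell count was 1.

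Checkpoint genes, which restrain or license T cells, rose in 5 of 15 (33.3%, against 6.25% of all genes). The costimulatory ligand Cd86 had no count in the line and 40.3 and 15.7 CPM in the tumours (edgeR adjusted p = 0.0122). The inhibitory receptor Vsir, or VISTA, was at 0.106 CPM in the line, 94.2 in tumour 2 and 22.1 in tumour 3 (edgeR adjusted p = 0.0181). The remaining rises were at low levels, with Pdcd1 (PD-1) at 1.56 and 14 CPM, Ctla4 at 3.69 and 1.37 and Pdcd1lg2 at 6.25 and 0.982, with none in the line (edgeR adjusted p = 0.0354, 0.0462 and 0.0354). On tumour 3 alone, the edgeR adjusted p was 0.0879 for Ctla4 and 0.076 for Pdcd1lg2. With tumour 3 left out, it was 0.0643 for Pdcd1. The PD-1 ligand Cd274 was at 4.61 CPM in the line, 87 in tumour 2 and 15.5 in tumour 3 and did not pass (edgeR adjusted p = 0.109). The count was 3 without tumour 2.

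Chemokine genes rose in 11 of 22 (50%, against 6.25% of all genes). On the ligand side, Cxcl14, made by epithelium and stroma, was at 0.106 CPM in the line, 35 in tumour 2 and 73.4 in tumour 3 with an edgeR adjusted p of 0.00687, and Ccl22, a dendritic cell product that draws regulatory T cells, had none in the line and 28 and 6.53 CPM (edgeR adjusted p = 0.0166). On the receptor side, Ccr2, of monocytes, was at 46 and 15.7 CPM and Cxcr4, of many leukocytes, at 74.3 and 11.6, with none in the line (edgeR adjusted p = 0.0119 and 0.00976). The fractalkine receptor Cx3cr1, at 0.503 CPM in the line, 12.2 in tumour 2 and 43.7 in tumour 3, was higher in tumour 3 (edgeR adjusted p = 0.0137). The count was 7 without tumour 2. The neutrophil chemokine Cxcl2 was at 0.848 CPM in the line, 0.174 in tumour 2 and 1.13 in tumour 3 (edgeR adjusted p = 0.904).

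Most vessel genes rose. Of 15 endothelial genes 10 rose (66.7%, against 6.25% of all genes) and 14 were above the line in both. Their sum was 60.0 CPM in the line, 1166 in tumour 2 and 556 in tumour 3. VE-cadherin Cdh5 had no count in the line and 184 and 49.5 CPM, at least 2316-fold higher in tumour 2 and at least 623-fold higher in tumour 3 (edgeR adjusted p = 0.00729). Pecam1 was at 0.954 CPM in the line, 268 in tumour 2 and 60.1 in tumour 3, with a log2 fold change of 7.42 ± 1.01 (SE) and an edgeR adjusted p of 0.00687, and von Willebrand factor Vwf at 0.053 CPM in the line, 50.2 in tumour 2 and 45.4 in tumour 3 (edgeR adjusted p = 0.0146). The count was 8 without tumour 2 and 10 without tumour 3. Among 6 lymphatic genes 2 rose (33.3%, against 6.25% of all genes), Mmrn1 and Lyve1. They were at 11.1 and 12.9 CPM and at 83.8 and 7.26, with none in the line. The receptor Flt4 was at 101 CPM in the line, 46.0 in tumour 2 and 53.8 in tumour 3 (edgeR adjusted p = 0.455). The 6 genes summed to 101 CPM in the line, 173 in tumour 2 and 104 in tumour 3. Leaving out tumour 2 gave an edgeR adjusted p of 0.0712 for Lyve1. Of 9 pericyte and smooth muscle genes 5 rose (55.6%, against 6.25% of all genes). Among them the proteoglycan Cspg4 was at 0.318 CPM in the line, 104 in tumour 2 and 37.7 in tumour 3. Its log2 fold change was 7.78 ± 0.93 (SE), with an edgeR adjusted p of 0.00674. Rgs5 was at 0.212 CPM in the line, 231 in tumour 2 and 96.8 in tumour 3 (edgeR adjusted p = 0.0139). The pericyte count was 3 without tumour 2.

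Fibroblast genes rose in 7 of 13 (53.8%, against 6.25% of all genes), and 12 were above the line in both tumours. Thy1, a surface marker of stromal cells and T cells, had no count in the line and 55.4 and 49.6 CPM (edgeR adjusted p = 0.00686). Col6a3 was at 0.212 CPM in the line, 139 in tumour 2 and 422 in tumour 3 and fibroblast activation protein Fap at 0.106 CPM in the line, 15.7 in tumour 2 and 9.57 in tumour 3 (edgeR adjusted p = 0.0148 and 0.0243). Lumican Lum had none in the line and was at 24.9 CPM in tumour 2 and 98 in tumour 3 (edgeR adjusted p = 0.0321), while dermatopontin Dpt was at 0.159 CPM in the line, 55.4 in tumour 2 and 15.3 in tumour 3 (edgeR adjusted p = 0.0265; without tumour 2, 0.0544). Pdgfra and decorin Dcn, which the line already expressed, were at 17.5 CPM in the line, 72 in tumour 2 and 105 in tumour 3 and at 149, 279.6 and 336 CPM in the same order, and neither passed (edgeR adjusted p = 0.169 and 0.557). The count was 4 without tumour 2.

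Fat genes were far higher in tumour 2 than in tumour 3. Of 20 adipocyte genes 4 rose (20%, against 6.25% of all genes), Cd36, Fabp4, Acvr1c and Retn, although 17 were above the line in both tumours. The count was 2 without tumour 2 and 17 without tumour 3. The lipid carrier Fabp4 was at 0.424 CPM in the line, 2621 in tumour 2 and 12 in tumour 3, and adiponectin Adipoq at 0 CPM in the line, 686 in tumour 2 and 0.982 in tumour 3 (edgeR adjusted p = 0.0398 and 0.0581). With tumour 2 left out, the edgeR adjusted p was 0.0745 for Fabp4 and 0.134 for Retn. The 8 genes with the largest excess of tumour 2 over tumour 3, among those with at least 50 CPM in the higher tumour, were fat and B cell genes, among them Cfd, Cyp2e1, Car3, Adipoq, Pck1, Pax5 and Thrsp. Adipsin Cfd was at 0.106 CPM in the line, 1716 in tumour 2 and 1.37 in tumour 3, carbonic anhydrase Car3 at 0 CPM in the line, 4367 in tumour 2 and 6.58 in tumour 3 and the gluconeogenic enzyme Pck1 at 0 CPM in the line, 953 in tumour 2 and 1.52 in tumour 3. None of these 8 passed with both tumours in the fit (edgeR adjusted p from 0.0529 for Pax5 to 0.0869 for Pck1). They were chosen for this excess, so their values are a description. The thermogenic gene Ucp1 was at 76.8 and 0.491 CPM with none in the line (edgeR adjusted p = 0.0702).

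The 8 genes with the largest excess of tumour 3 over tumour 2 were of several kinds: Pkhd1l1, Krt6a, Sfrp4, Inha, Kcnt1, Greb1, Elovl4 and Igfbp2. The wound keratin Krt6a was at 0 CPM in the line, 0.521 in tumour 2 and 83.9 in tumour 3, the Wnt antagonist Sfrp4 at 23.4 CPM in the line, 0.391 in tumour 2 and 57.8 in tumour 3 and Elovl4, an elongase of very long chain fatty acids in skin, at 0.212 CPM in the line, 1.82 in tumour 2 and 92.9 in tumour 3. The inhibin subunit Inha was at 3.44 CPM in the line, 0.955 in tumour 2 and 91.9 in tumour 3, the potassium channel Kcnt1 at 0.371 CPM in the line, 1.09 in tumour 2 and 69.3 in tumour 3, the oestrogen-responsive gene Greb1 at 0.0265 CPM in the line, 1.87 in tumour 2 and 99.9 in tumour 3 and the binding protein Igfbp2 at 9.11 CPM in the line, 2.08 in tumour 2 and 95.4 in tumour 3. None passed (edgeR adjusted p from 0.0741 for Greb1 to 0.933 for Sfrp4). Of 21 keratinocyte genes 4 rose (19%, against 6.25% of all genes). Ly6d, also a B cell precursor gene, was at 0.053 CPM in the line, 205 in tumour 2 and 29.1 in tumour 3. Dsc3 was at 0 CPM in the line, 65.7 in tumour 2 and 93.6 in tumour 3. Krtdap was at 0 CPM in the line, 4.3 in tumour 2 and 12.8 in tumour 3. Krt10 was at 2.41 CPM in the line, 17 in tumour 2 and 56 in tumour 3. Of these Ly6d was higher in tumour 2. On tumour 2 alone the edgeR adjusted p was 0.0569 for Krtdap and 0.093 for Krt10. The count was 2 without tumour 3. Of 10 hair follicle and sebaceous gland genes 0 passed in edgeR's test, 3 at an unadjusted p under 0.05, and DESeq2 called 2 higher. Melanocyte factor Mitf, shared with other cell types, was at 0.795 CPM in the line, 32.6 in tumour 2 and 11.2 in tumour 3, and the pigment gene Dct was at 14.3 CPM in tumour 3 and 0.955 in tumour 2 with none in the line (edgeR adjusted p = 0.0416 and 0.137; Mitf without tumour 2, 0.0959). Of 6 nerve genes 1 rose (16.7%, against 6.25% of all genes), the Schwann cell factor Sox10. It was at 0 CPM in the line, 14.3 in tumour 2 and 4.37 in tumour 3 (edgeR adjusted p = 0.0309). The nerve list's median log2 fold change was 2.56, and 2.52 without tumour 2.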

How the data were processed

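Total RNA from 2 subcutaneous tumours and the cultured line was compared within a table of 17 labelled libraries. The authors deposited raw read counts per gene, and the submitters' processing notes name HISAT, HISAT2, featureCounts and DESeq2 without versions, and hg19 and mm39 as builds, so which build each step used is not given in the sources used here. The strand setting of the counting is not given either. 1 table column without a sample label was not used. The counts sum to 38887321 for the line, 24145706 for tumour 2 and 15014218 for tumour 3. No pair of libraries held identical counts.

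Of 43629 genes, 39055 had a count and 22671 with over 0.5 CPM in at least 2 libraries were tested. edgeR 4.0.16 in R 4.3.3 fitted all 17 libraries in 8 groups (TMM scaling, robust quasi-likelihood, 9 residual degrees of freedom), with group as the sole term, and p-values were adjusted over all genes tested by Benjamini-Hochberg. The lone line library is assumed to vary like the replicated groups. P-values measure only the spread between these samples, which may be technical. A log2 ratio of 1 tumour over the line used a prior count of 2. Genes with no count in the line are given as a bound against a floor of 3 counts there (0.0795 CPM, counting error only). The script was tested on simulated counts. The members, the gene lists and the naming rules were chosen with earlier results of these data known, and lists are described by counts and medians, with no set test. The named genes are the 14 largest rises with at least 10 CPM in both tumours, the 14 steepest falls with at least 10 CPM in the line, the 8 genes most unlike between the tumours in each direction with at least 50 CPM, and, in each list, up to 6 members past the threshold by smallest p and its 4 defining members. Numbered gene models, mitochondrial genes and antigen receptor segments were left out of these rules, apart from the lists. Some genes that these rules take are not reported here. Other list members are named beside a result they touch, some after their values were seen. Promoters are RefSeq sequences in GRCm38.p6, matched by symbol. Alternatives were DESeq2 1.42.0, 2 other scalings, 2 other filters, other sets of libraries, mitochondrial genes left out, and each tumour left out. List counts under these were added after seeing the data.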

Additional observations from a re-analysis of the deposited data

How the results depend on the processing

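The number of genes called moved with several choices, while no named gene that passed the test reversed its direction in any alternative. DESeq2 called 6059 genes (4409 higher, 1650 lower), against 2151 (1418 and 733) in edgeR. The fit of the 2 tumours and the line alone, with 1 residual degree of freedom, called 0 genes, 0 higher and 0 lower, with 3671 at an unadjusted p under 0.05 in edgeR. With no filter on low counts 1418 genes passed in all and 425 were lower. Library size alone gave 282 lower genes and 81.0% of calls on the higher side against 65.9%, and it moved the median log2 fold change of all genes from 0.60 to 0.85. Leaving out 1 tumour gave 1067 to 2052 genes in all, 866 to 1540 higher and 201 to 512 lower. The low end was always the fit without tumour 2. Relative log expression scaling, a filter of 5 CPM, leaving out the healthy tissues and leaving out mitochondrial genes kept the total between 2097 and 2195. Of 174 named genes that passed, 102 kept the call without tumour 2, 145 without tumour 3, 144 with library size alone and 129 with no filter. No paired analysis was possible because the line is 1 library with no replicate number. The line's 38887321 reads make 3 counts worth 0.0795 CPM, and no spread between libraries of the line was measured.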
